A study of Mus musculus with 8 samples.

Results

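A list of 42 inflammatory genes was examined in m6A-RIP-seq peak lists from mouse primary vascular smooth muscle cells (VSMCs, the muscle cells of the artery wall). The list holds cytokines and their receptors, chemokines, adhesion molecules, the NF-kB and IRF transcription factors with their inhibitors and feedback genes, JAK and STAT proteins, and the TNF and Toll-like receptors with their adaptors. It was drawn up for the inflammatory state that smooth muscle cells can take on, and the rule uses no measured value, although the list was drawn up with earlier results of these data known. A gene was counted where a peak summit lay in 1 of its annotated exons, and 22 of the 42 genes had such a summit in at least 1 list. The 4 lists held 223 summits of these genes, which fell into 35 regions of 11361 in all.

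VSMCs were taken from the descending aorta of C57BL/6J mice aged 8 to 12 weeks, cultured, and transduced with lentivirus that carried either shCTR, a control hairpin RNA against a plant microRNA, or shMettl14, a hairpin against Mettl14. Both groups therefore carried virus and a hairpin, and the sample labels name no other treatment, cytokine or stimulus. RNA fragments enriched with an anti-m6A antibody (IP) were sequenced beside the input RNA for replicates A and B of each group, so that n was 2 lists per group. The sources used here do not say whether A and B came from separate cultures or animals, and p-values measure only the spread between these samples. The exception is Fisher's exact test, which was run on sums over replicates, so that its p-values do not measure that spread.

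N6-methyladenosine (m6A) is a methyl mark that a writer complex with the subunits METTL3 and METTL14 places on adenosines of messenger RNA, mostly within the DRACH sequence (D stands for any base but C, R for a purine and H for any base but G) and often near the stop codon. Reader proteins that bind the mark can change the stability or translation of the transcript. Inflammatory transcripts are often short-lived. Cytokine and Toll-like receptors pass signals through adaptors and kinases to NF-kB, IRF and STAT factors, which switch on cytokines, chemokines, adhesion molecules and the feedback genes that end the response. In the artery wall these genes are known for the recruitment of leukocytes after injury.

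For strongly enriched regions, the DRACH site nearest to the median position of the strongest summits of the 4 lists is shown here. Each is a 25-base stretch of the sense strand of the transcript, written 5′ to 3′ in GRCm38, with the DRACH letters in capitals.
Tlr4, 3′ UTR, 125 nt past the stop codon, chr4:66841590-66841614, plus strand: gctatagcatGGACCttaccgggca
Tnfrsf1b, 3′ UTR, 1174 nt past the stop codon, chr4:145214603-145214627, minus strand: ctgcagcatcAGACTgtagagggga
Il1r1, 3′ UTR, 168 nt past the stop codon, chr1:40313547-40313571, plus strand: ttggtggccaGGACCgctcagagag
Irf2bp2, coding sequence, chr8:126591381-126591405, minus strand: ccagcctcccAGACTcctctctggc
Icam1, 3′ UTR, 166 nt past the stop codon, chr9:21028098-21028122, plus strand: agagctaagaGGACTcggtggatgg

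GGAC, the form of DRACH best known as a target of the writer, was the core in Tlr4, Il1r1 and Icam1. In some regions both lists of 1 group ranked apart from both lists of the other. The sites of Tnfrsf1b (higher in shMettl14), Il1r1 (lower) and Irf2bp2 (higher) above come from such regions, and the next 4 sites come from those with the largest changes among the regions not yet shown, all of which ranked lower in shMettl14.
Tlr4, early coding sequence, chr4:66839650-66839674, plus strand: ctccatgaacTGACTctaagaggta
Tnfaip3, coding sequence of exon 8, chr10:19003694-19003718, minus strand: ccaggttccaGAACAatgtcccgtg
Lif, 3′ UTR, 93 nt past the stop codon, chr11:4269413-4269437, plus strand: ctggggtttgGGACAttgttaaatg
Tnfaip3, coding sequence of exon 7, chr10:19004552-19004576, minus strand: ggactccaggAGACAgagcagggac

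A peak shows where enrichment was found, not which adenosine carried the mark, and several regions held more than 1 DRACH site. No site of Traf6 is shown, because its strongest summits were spread from 558 nt before to 62 nt past the stop codon. The Irf2bp2 site lies 39 nt from the median summit of its region, and the other sites lie within 20 nt of theirs, but the summits of single lists lay farther from the site in several regions.

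The lists differed in size, with 11158 and 8655 summits in the shCTR lists and 13675 and 9256 in the shMettl14 lists. The number of overlapping IP fragments at a summit (the pileup) had a median of 16 in each shCTR list and of 14 and 13 in the shMettl14 lists. The lists give no read totals, so raw fragment numbers cannot be set against each other between lists, and peaks are described below by their percentile of fold enrichment among all summits of their own list. Values of the lists of a group are given with A before B. Because the lists differ in length, a percentile describes a peak within its list, and only the ranks among regions found in all 4 lists were tested. A loss of m6A that was equal at all sites would leave those ranks in place. Mettl14 itself had no summit, and because peaks give no expression level the knockdown could not be checked here.

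The cell type was checked with marker genes, whose summits depend on level and on m6A together. Of 8 smooth muscle markers, Lmod1 had summits in all 4 lists and Myh11 in 3, whereas Acta2, Tagln, Cnn1, Myl9, Tpm2 and Smtn had none. Of 7 endothelial markers, Cdh5 (93, 109, 65 and 70 fragments at its highest summit in shCTR A, shCTR B, shMettl14 A and shMettl14 B) and Pecam1 (33, 24, 26 and 26 fragments) had summits in all 4 lists, Kdr in 3, and Tek, Vwf, Emcn and Egfl7 in none. The summed highest pileups of the endothelial markers were 137, 139, 98 and 96 fragments, and those of the smooth muscle markers 117, 83, 82 and 52. Of 9 macrophage and leukocyte markers, Csf1r alone had a summit, in shMettl14 B with 7 fragments, and Ptprc, Cd68 and Adgre1 had none. Of 6 adventitial fibroblast markers, Pdgfra had a summit in all 4 lists and Dpt, Lum, Dcn, Pi16 and Clec3b had none. Endothelial cells also use several of the inflammatory genes, such as Icam1 and Vcam1, and their part in the peaks of these genes was not tested. Per the study's methods the adventitia was removed and the endothelium scraped off before the cells were cultured. In bulk RNA, fewer cells of a type and less RNA per cell cannot be told apart.

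Most of the receptors and their adaptors carried peaks, whereas most of the secreted ligands and all of the NF-kB subunits did not. Of the 42 genes, 18 (Il6st, Lif, Lifr, Il1r1, Csf1, Cxcl12, Icam1, Tnfaip3, Zfp36, Irf2bp2, Stat2, Jak1, Tnfrsf1a, Tnfrsf1b, Traf3, Traf6, Tlr2 and Tlr4) had a summit in every list. Among all 21597 coding genes the share with a summit in every list was 16.1%, and the share with a summit in at least 1 list was 25.5%. Vcam1 and Nfkbiz had summits in 3 lists and were both missing from shCTR B. Jak2 had 1 summit in each shCTR list and none in the shMettl14 lists. Irf3 had 1 summit, in shMettl14 B. The other 20 genes (Il6, Il11, Il1rl1, Ccl2, Ccl7, Cxcl1, Cxcl5, Nfkb1, Nfkb2, Rela, Relb, Nfkbia, Nfkbib, Irf1, Irf2, Irf7, Irf9, Stat3, Stat5b and Myd88) had no summit in any list. The absence of a peak can reflect a low transcript level as well as a lack of m6A, and the lists do not separate these.

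**Figure D1:**
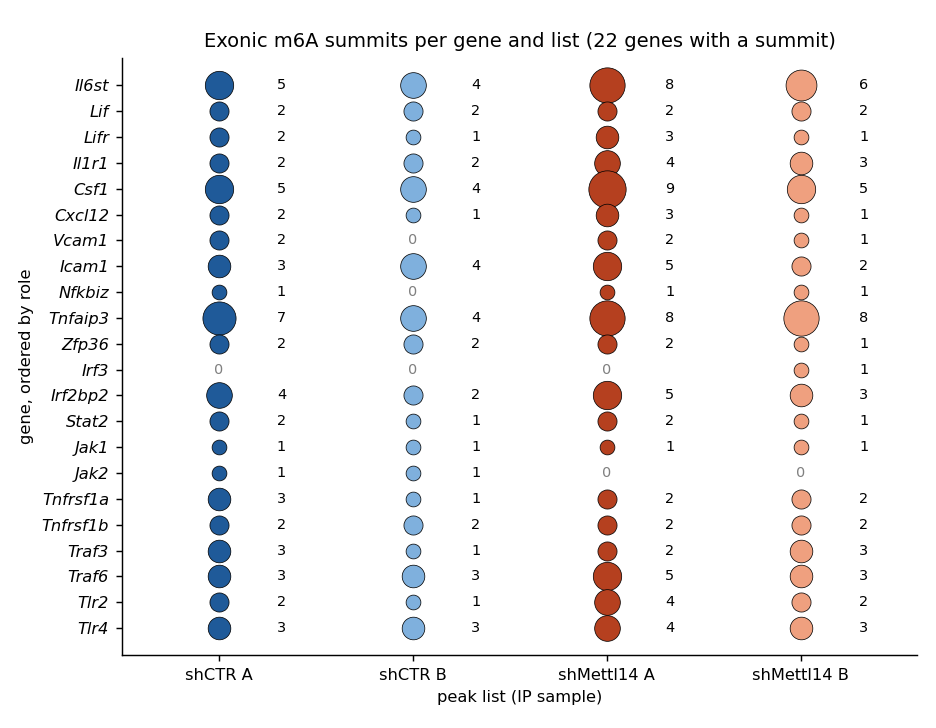
Number of exonic m6A summits (dot area and number) of each of the 22 genes with a summit, in rows ordered by role, in the 4 IP peak lists, in columns. Tnfaip3, Csf1 and Il6st had the most summits, Vcam1 and Nfkbiz were at 0 in shCTR B, and Jak2 was at 0 in both shMettl14 lists.

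Whether knockdown changed how many peaks these genes had was examined next. There were 57 and 40 summits in the shCTR lists and 74 and 52 in the shMettl14 lists. The groups overlapped, with means of 48.5 ± 12.0 in shCTR and 63.0 ± 15.6 in shMettl14 (SD, n = 2), a ratio of 1.30 and an exact permutation p of 0.667 (two-sided, smallest possible p 0.333). Counted as distinct intervals the ratio was 0.984, so that the direction depended on how many summits the caller placed in an interval. Relative to the size of the list there were 5.11 and 4.62 summits per 1000 in shCTR, and 5.41 and 5.62 in shMettl14. These values did not overlap, with a ratio of 1.13 and an exact permutation p of 0.333, the smallest possible. The number of genes with a summit was 21, 19, 20 and 21 in the same order. In both lists of a group, 19 genes had a summit in shCTR and 20 in shMettl14. The overlap file that the authors deposited for each shRNA held 19 of the genes for shCTR and 18 for shMettl14. Cxcl12 and Vcam1 were missing from the latter, although the intervals of their summits in shMettl14 A and B share bases in the lists.

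The 35 regions of these genes comprised 24 found in all 4 lists (of 17 genes), 6 in 3 lists, 2 in 2 lists and 3 in 1 list. Both regions with 2 lists were found in shCTR only, in Csf1 and Jak2, and none was found in both shMettl14 lists only. Over all 11361 regions, 1.71% were found in both shCTR lists only and 1.79% in both shMettl14 lists only. In the 24 shared regions, the rank of fold enrichment was compared between the groups with limma, as a difference of normal scores in which a negative value means a lower rank in shMettl14. None passed an adjusted p of 0.05, as was the case for 0% of the 4929 shared regions of all genes, and 2 had an unadjusted limma p under 0.05 (4.93% of all regions). Both were lower in shMettl14, as were 2.52% of all regions at that threshold, and 2.41% were higher. The lowest adjusted p by limma was 0.985 among the 24 and 0.796 among all 4929. Of the 24, 15 were lower in shMettl14 and 9 higher, and 49.9% of all shared regions were lower. Both shMettl14 lists were below both shCTR lists in 6 of the 24 (15.8% of all regions) and above them in 2 (17%). The median change was -0.22 in the 24 regions and 0.00 over all. Fisher's exact test was run on the fragments, with replicates summed. Each region's sum was taken as a share of its group's sum over the 4929 shared regions. The log2 ratios compare these shares, not raw fragments. The test gave 1 region at an unadjusted p under 0.05 (3.21% of all regions) and none after adjustment. None of the 24 had both an unadjusted Fisher p under 0.05 and a log2 ratio of these shares over 1 in size (0.426% of all regions). The study's methods name the same test and fold size, but take fold changes from the peak caller and do not say how they were combined, so that its own rule was not repeated here.

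**Figure D2:**
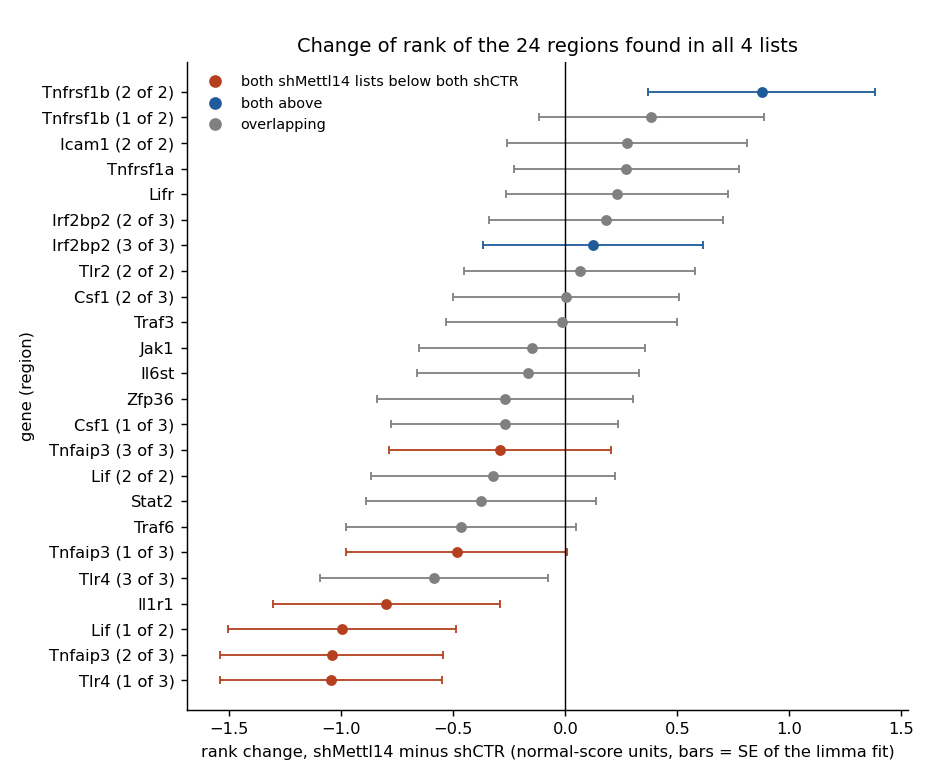
Change of rank of the 24 regions found in all 4 lists, as shMettl14 minus shCTR in normal-score units (points) with the SE of the limma fit (bars). The changes ranged from -1.05 in the early coding region of Tlr4 to 0.88 in the distal 3′ UTR region of Tnfrsf1b. No adjusted p was under 0.05.

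To compare strength within the lists, percentiles were averaged over the 4 lists for each region. The median of this mean in the 24 regions was 75.7, and that of all shared regions was 66.9. Of the 24 regions, 8 had a mean percentile of at least 90 (14.8% of all shared regions did). These lay in Tlr4, Tnfrsf1b, Il1r1, Traf6, Irf2bp2, Icam1, Tnfaip3 and Csf1.

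**Figure D3:**
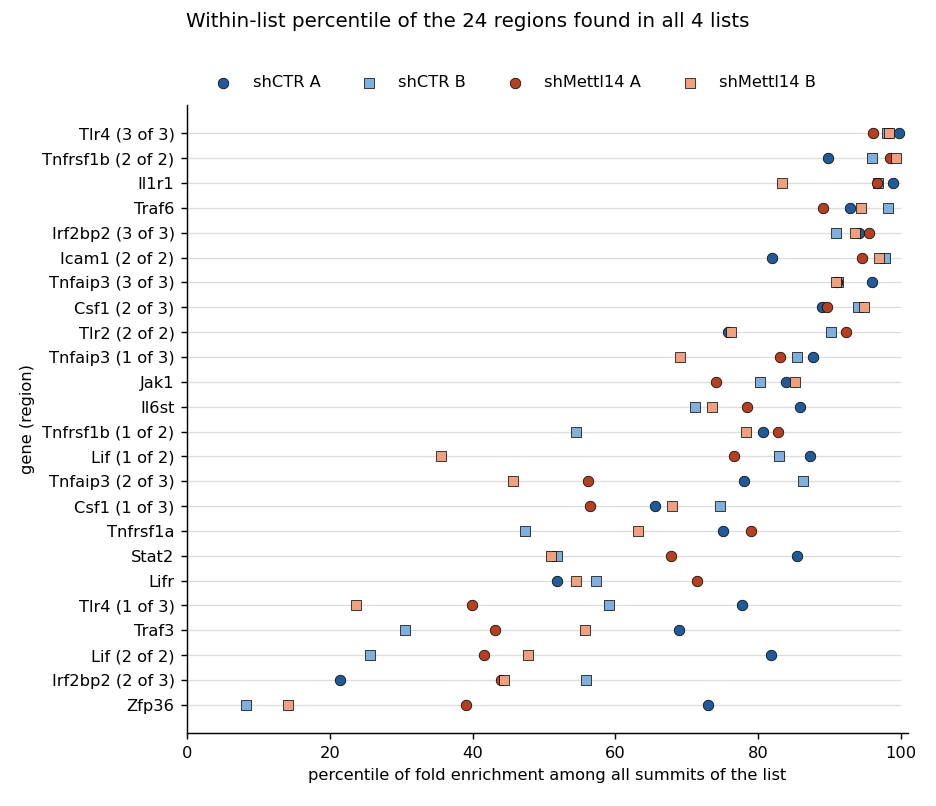
Percentile of fold enrichment among all summits of the list (horizontal axis) for each of the 24 regions found in all 4 lists (rows, ordered by mean), with 1 point per list. The 3′ UTR region of Tlr4, at the top, ran from 96.1 to 99.7, Il1r1 from 83.4 to 98.9, and the coding region of Zfp36, at the bottom, from 8.26 to 73.0.

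Among the cytokine receptors, Il6st, Lifr and Il1r1 had peaks in every list, and Il1rl1 had none. Il6st encodes gp130, the signalling subunit shared by receptors of the interleukin-6 family. Its summits began 265 nt before the stop codon and reached 1142 nt past it, all in the last exon, with 5 and 4 in the shCTR lists and 8 and 6 in the shMettl14 lists. The strongest summit of its single region (chr13:112504032-112505856) was at percentile 85.8, 71.1, 78.4 and 73.5 in shCTR A, shCTR B, shMettl14 A and shMettl14 B, with 73, 38, 49 and 43 fragments. The shMettl14 lists fell between the shCTR lists, and the change was -0.17 ± 0.50 (SE).

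Lifr, which encodes the receptor of leukemia inhibitory factor and pairs with gp130, carried shallow peaks of 9, 10, 11 and 9 fragments at percentiles 51.8, 57.2, 71.4 and 54.5. Its transcript is the longest of the genes with summits in every list (9655 nt), and its summits lay from 446 nt before to 368 nt past the stop codon. The groups overlapped, with a change of 0.23 ± 0.49 (SE).

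Il1r1, the receptor through which interleukin-1 signals, had 1 of the most enriched regions (chr1:40313072-40313773). Its percentiles were 98.9 and 96.8 in the shCTR lists and 96.6 and 83.4 in the shMettl14 lists, with 31, 36, 24 and 18 fragments. Both shMettl14 lists were below both shCTR lists, shMettl14 A by less than 1 percentile, and the change was -0.80 ± 0.51 (SE, limma unadjusted p 0.128, adjusted p 0.993). Every list placed a summit 77 to 110 nt before the stop codon and another past it, around the site shown above. Il1rl1, which encodes the interleukin-33 receptor ST2, had no summit although its transcript is 5302 nt long.

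Of the cytokines, Lif and Csf1 had peaks, and Il6 and Il11 had none. Lif encodes leukemia inhibitory factor and had 1 summit in each of 2 separate regions in every list, both in the 3′ UTR. Next to the stop codon (chr11:4269246-4269591, 39 to 86 nt past it) it stood at percentile 87.3 and 82.9 in the shCTR lists and 76.7 and 35.6 in the shMettl14 lists, with 21, 19, 13 and 8 fragments. The shMettl14 lists were both lower, and shMettl14 B was far from shMettl14 A. The change was -0.999 ± 0.508 (SE, limma unadjusted p 0.0616, adjusted p 0.985). The unadjusted limma p was 0.0473 with centred log2 fold enrichment and 0.0602 with ranks by −log10 p, and Fisher's exact test gave a p of 0.122. The distal region, 2436 to 2641 nt past the stop codon, stood at 81.8, 25.6, 41.6 and 47.8, and the shMettl14 lists fell between the shCTR lists.

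Csf1, which encodes the growth factor of macrophages, had the deepest peak of all 42 genes. The region 317 to 347 nt past its stop codon (chr3:107742007-107743202) had 139 and 150 fragments in the shCTR lists and 98 and 108 in the shMettl14 lists, at percentiles 88.9, 94.0, 89.7 and 94.8. The groups overlapped and the change was 0.00 ± 0.51 (SE). A coding region in exon 6 (chr3:107748386-107749204) had 93, 87, 61 and 53 fragments at percentiles 65.5, 74.7, 56.5 and 68.0. It was the region that Fisher's exact test picked out before adjustment (log2 ratio -0.35, p 0.0401, adjusted p 1), and its rank change was -0.27 ± 0.51 (SE). A distal 3′ UTR region of Csf1 (chr3:107741345-107741683) was listed only in shCTR A (34 fragments, percentile 8.91) and shCTR B (21 fragments, percentile 2.02), both near the bottom of their lists.

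Of the chemokines, Ccl2, Ccl7, Cxcl1 and Cxcl5, which attract monocytes and neutrophils, had no summit, and their transcripts are 801 to 1575 nt long. Cxcl12, a chemokine made by stromal cells, has a transcript of 5627 nt and had a summit in every list, but no region was found in all 4. Its 3′ UTR region (chr6:117177547-117177764) was listed in shCTR A, shCTR B and shMettl14 A with 22, 32 and 21 fragments at percentiles 16.2, 58.7 and 34.8. A region in an exon outside the transcript used here (chr6:117173560-117173748) was listed in shCTR A, shMettl14 A and shMettl14 B with 46, 30 and 31 fragments. Its percentiles were all under 1 (0.860, 0.0585 and 0.303), so that these summits were among the weakest of their lists by fold enrichment.

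Both adhesion molecules had peaks at the end of the transcript. Icam1, which holds leukocytes on the vessel wall, had a deep 3′ UTR region (chr9:21027702-21028648) with 104, 113, 83 and 74 fragments at percentiles 81.9, 97.8, 94.6 and 96.9. The value of shCTR A was the lowest and that of shCTR B the highest, and the change was 0.27 ± 0.54 (SE). All 4 lists also placed a weaker summit 97 to 129 nt before the stop codon. A second Icam1 region (chr9:21019942-21020157), in an exon outside the transcript used here, was listed in 3 lists with 16, 18 and 26 fragments and was missing from shMettl14 B. Of the Icam1 summits, 2 also lay in an exon of Gm47079, and the lists do not give the strand. Vcam1, which binds leukocyte integrins, was listed in shCTR A, shMettl14 A and shMettl14 B with 21, 16 and 12 fragments at percentiles 45.3, 25.7 and 24.4. Vcam1 was not entered in the rank test, which took only regions found in all 4 lists.

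None of the NF-kB subunits Nfkb1, Nfkb2, Rela and Relb had a summit in any list. Their transcripts are 2209 to 4117 nt long and hold 30 to 85 DRACH sequences. The inhibitors Nfkbia and Nfkbib, which keep NF-kB in the cytoplasm, had none either. Of the other inhibitors and feedback genes, Tnfaip3 and Zfp36 had summits in every list and Nfkbiz in 3 lists. Tnfaip3 encodes A20, a ubiquitin-editing enzyme that shuts down NF-kB signalling, and had 27 summits in the 4 lists (7, 4, 8 and 8), spread over exons 7, 8 and 9. In each of its 3 regions both shMettl14 lists ranked below both shCTR lists.

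The exon 7 region of Tnfaip3 (chr10:19004405-19005253) stood at percentile 87.7 and 85.5 in the shCTR lists and 83.1 and 69.1 in the shMettl14 lists, with 20, 27, 16 and 20 fragments. The exon 8 region (chr10:19003620-19003879) stood at 78.1, 86.3, 56.1 and 45.6, with 18, 33, 20 and 17 fragments. The 3′ UTR region (chr10:19002059-19003000) stood at 96.0, 91.3, 91.1 and 90.9, with 36, 52, 28 and 34 fragments. The separation was wide in exon 8 and under 1 percentile at its narrowest in the 3′ UTR. The changes were -0.48 ± 0.49, -1.04 ± 0.50 and -0.29 ± 0.49 (SE), and the exon 8 region was 1 of the 2 with an unadjusted limma p under 0.05 (p 0.0474, adjusted p 0.985). Fisher's exact test on its fragments gave a log2 ratio of shares of -0.15 and a p of 0.668, and ranking by −log10 p gave an unadjusted limma p of 0.112. That limma p was 0.0354 with centred log2 fold enrichment and 0.0420 with a replicate block. These 3 regions share 1 transcript and are not independent observations.

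Zfp36 encodes tristetraprolin, which binds AU-rich elements in cytokine messages and speeds their decay. Its summits lay in the coding sequence, 377 to 773 nt before the stop codon, at percentiles 73.0, 8.26, 39.1 and 14.1 for the strongest, with 31, 26, 15 and 16 fragments. The shCTR lists lay at both extremes, so the change of -0.27 ± 0.57 (SE) was far inside the spread, and it became 0.70 without shCTR A. Nfkbiz, an inducible nuclear partner of NF-kB, had a coding summit 1323 to 1359 nt before the stop codon in shCTR A, shMettl14 A and shMettl14 B, with 26, 24 and 14 fragments at percentiles 45.8, 53.2 and 37.2.

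Of the IRF group, Irf1, Irf2, Irf7 and Irf9, transcription factors of the interferon response, had no summit. Irf3, which acts in the early antiviral response, had 1 weak summit of 8 fragments in shMettl14 B (percentile 28.7), in an exon outside the transcript used here. Irf2bp2, a corepressor that binds IRF2, carried strong coding peaks. Its region 158 to 279 nt before the stop codon (chr8:126590993-126591984) stood at percentile 94.2 and 90.9 in the shCTR lists and 95.5 and 93.5 in the shMettl14 lists, with 55, 58, 54 and 44 fragments. Among all shared regions both shMettl14 ranks were above both shCTR ranks, although by percentile of all summits shMettl14 B fell between the shCTR lists, and the change was 0.12 ± 0.49 (SE). A weaker region in exon 1 (chr8:126592458-126592777) stood at 21.4, 55.9, 44.0 and 44.5.

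Stat2 and Jak1 had peaks in every list, whereas Stat3 and Stat5b, with transcripts of 4516 and 5213 nt, had none. Jak1, a kinase of interferon and gp130 receptors, had a single summit 304 to 364 nt past its stop codon (chr4:101152946-101153359) at percentiles 83.9, 80.3, 74.1 and 85.2, with 35, 30, 24 and 25 fragments. Stat2, part of the complex that switches on interferon-induced genes, stood at 85.5, 51.8, 67.8 and 51.0 close to the stop codon (chr10:128291152-128291594), with 24, 14, 14 and 10 fragments. In both genes the groups overlapped, with changes of -0.15 ± 0.50 and -0.38 ± 0.51 (SE). Jak2, a kinase of growth factor and cytokine receptors, had a coding summit 32 nt before the stop codon in shCTR A (12 fragments, percentile 50.5) and 46 nt before it in shCTR B (9 fragments, percentile 29.4), and none after knockdown. These pileups were below the median of 16 fragments of each shCTR list.

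The receptors of TNF and of microbial ligands and their adaptors had summits in every list in 6 of 7 genes, and Myd88 had none. Tlr4, the receptor of bacterial lipopolysaccharide, had the region with the highest mean percentile over the 4 lists among these genes. In single lists it was the highest in shCTR A, whereas Traf6 was higher in shCTR B and the distal region of Tnfrsf1b in both shMettl14 lists. The Tlr4 region lay around the stop codon (chr4:66841233-66841805) with its strongest summit 79 to 178 nt past it, at percentile 99.7 and 98.1 in the shCTR lists and 96.1 and 98.3 in the shMettl14 lists, with 52, 48, 36 and 32 fragments. The value of shMettl14 B fell between those of the shCTR lists, and the change was -0.58 ± 0.51 (SE, limma adjusted p 0.999). Every list had another summit 57 to 73 nt before the stop codon.

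An early coding region of Tlr4 (chr4:66839351-66839763, 1751 to 1840 nt before the stop codon) was weaker, at percentile 77.7 and 59.2 in the shCTR lists and 39.9 and 23.6 in the shMettl14 lists, with 17, 13, 8 and 10 fragments. Both shMettl14 lists were below both shCTR lists. The change of -1.05 ± 0.50 (SE) was the lowest of the 24 regions (limma unadjusted p 0.0462, adjusted p 0.985). Fisher's exact test on its fragments with replicates summed gave a log2 ratio of shares of -0.42 and a p of 0.384. The unadjusted limma p was 0.0380 with ranks by −log10 p and 0.0455 with centred log2 fold enrichment. Tlr2, which recognizes bacterial lipoproteins, had a peak in every list 171 to 219 nt before the stop codon (chr3:83836496-83836950), at 75.8, 90.3, 92.3 and 76.3. An early coding region of Tlr2 (chr3:83838068-83838399) was listed in shCTR A, shMettl14 A and shMettl14 B with 18, 9 and 10 fragments at percentiles 86.3, 43.6 and 63.2, and was missing from shCTR B.

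The TNF receptors differed from each other in where their peaks lay. Tnfrsf1a, the widely expressed receptor, had summits on both sides of the stop codon (chr6:125361832-125362403) at percentiles 75.1, 47.3, 79.1 and 63.2 for the strongest, with 43, 44, 39 and 25 fragments. Tnfrsf1b, the more restricted receptor, had 1 summit at the stop codon and another far down the 3′ UTR. The distal one (chr4:145214425-145214910, 1142 to 1236 nt past the stop codon) was the stronger, at percentile 89.8 and 95.9 in the shCTR lists and 98.5 and 99.4 in the shMettl14 lists, with 26, 29, 23 and 32 fragments. Both shMettl14 lists were above both shCTR lists, and the change of 0.88 ± 0.51 (SE) was the highest of the 24 (limma unadjusted p 0.0970, adjusted p 0.993). At the stop codon (chr4:145215651-145215902) the percentiles were 80.7, 54.5, 82.8 and 78.4, and the change was 0.38 ± 0.50 (SE).

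The adaptors Traf3 and Traf6 are ubiquitin ligases that carry receptor signals to NF-kB and IRF factors. Traf6 had 3 and 3 summits in the shCTR lists and 5 and 3 in the shMettl14 lists, from 663 nt before to 62 nt past the stop codon (chr2:101696693-101697667). Its strongest summit stood at percentile 92.9, 98.2, 89.0 and 94.4, with 26, 27, 22 and 20 fragments, and it lay at a different position in each list. The groups overlapped, with a change of -0.47 ± 0.51 (SE). Traf3 was weaker, at 68.9, 30.5, 43.2 and 55.8 with 20, 14, 12 and 13 fragments, and the shMettl14 lists fell between the shCTR lists.

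Where the peaks lay along the transcript was compared with all other genes. Of the 223 summits, 215 could be placed in 1 complete coding transcript per gene, and the other 8 lay in exons outside it. None lay in a 5′ UTR. Within 200 nt of the stop codon were 40.0% of 55 and 38.5% of 39 summits in the shCTR lists and 32.4% of 71 and 38.0% of 50 in the shMettl14 lists. The difference between the group means (39.2% ± 1.09 and 35.2% ± 3.96, SD, n = 2) gave the smallest possible exact permutation p of 0.333, and with a window of 400 nt it turned to 0.69 points higher in shMettl14. Of the summits of all other genes, 26.7% ± 0.0443 in shCTR and 26.2% ± 1.19 in shMettl14 (SD, n = 2) lay in the window of 200 nt. Summits of 1 gene are not independent, and Il6st, Csf1 and Tnfaip3 held 23, 23 and 27 of the 223.

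**Figure D4:**
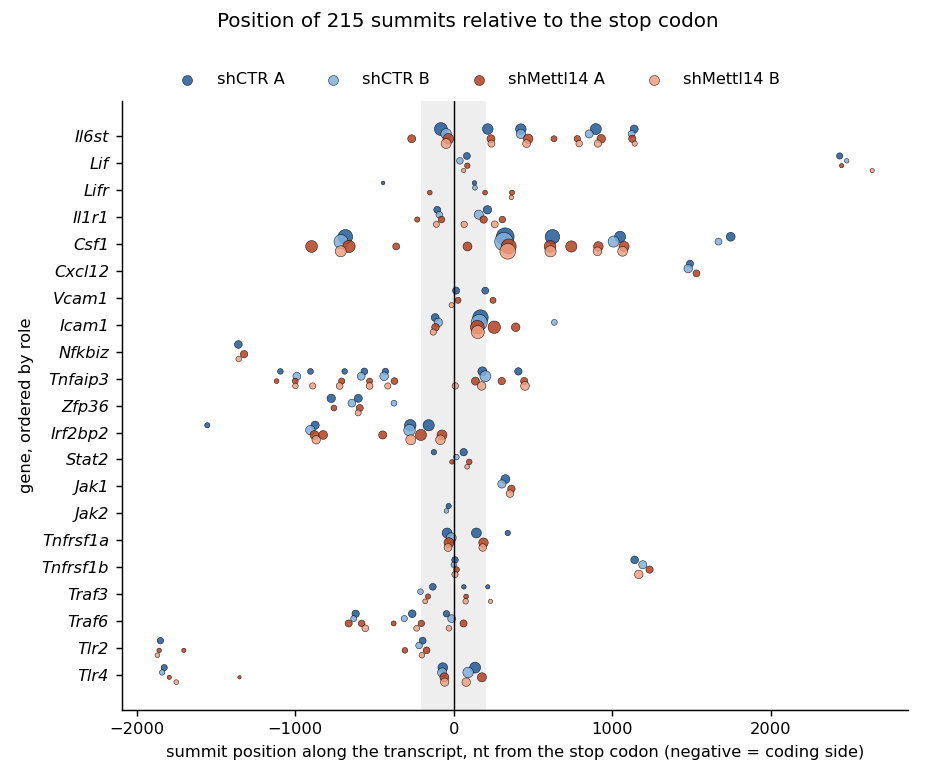
Position of 215 summits along the transcript of each gene, in nt from the stop codon (horizontal axis, negative on the coding side), with 1 colour per list, dot area growing with the pileup, and the window of 200 nt in grey. Summits of Il1r1 and Tnfrsf1a lay on both sides of the stop codon, those of Tlr4 lay there and in the early coding sequence, those of Tnfaip3 were spread over the coding sequence and the 3′ UTR, and Jak1, Zfp36 and Cxcl12 had none in the window.

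By gene, 10 of the 18 with summits in every list (Icam1, Il1r1, Il6st, Lif, Stat2, Tlr4, Tnfaip3, Tnfrsf1a, Tnfrsf1b and Traf6) had a summit within 200 nt of the stop codon in every list. Cxcl12, Jak1 and Zfp36 had none there in any list. The 3′ UTR held 47.6% ± 2.08 of the summits in shCTR and 50.6% ± 1.91 in shMettl14 (SD, n = 2), and 30.5% ± 1.39 and 31.7% ± 0.277 of those of other genes. The last exon held 182 of the 215 summits. The other 33 were in Tnfaip3 (18), Csf1 (6), Irf2bp2 (6) and Nfkbiz (3), in exons of 182 to 1547 nt. In the last exon were 85.4% ± 2.51 of the summits in shCTR and 84.3% ± 0.359 in shMettl14, and 64.0% ± 0.450 and 64.2% ± 0.705 of those of other genes (SD, n = 2).

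A DRACH sequence on the sense strand lay within 50 nt of 94.7% ± 0.231 of the summits in shCTR and 94.5% ± 2.15 in shMettl14, and of 96.1% ± 0.165 and 95.5% ± 0.781 of those of other genes (SD, n = 2, exact permutation p 1 for the 42 genes). GGAC, which overlaps DRACH where A, C or T follows, lay within 50 nt of 50.9% and 64.1% of the summits in the shCTR lists and of 47.9% and 48.0% in the shMettl14 lists. The groups did not overlap, and the exact permutation p was 0.333, the smallest possible. For other genes the values of GGAC were 55.9% and 59.2% in shCTR and 52.4% and 56.2% in shMettl14, which overlap. ATTTA, the core of the AU-rich elements that Zfp36 binds, was present in the 3′ UTR of 34 of the 42 genes and of 58.8% of coding genes. It lay within 100 nt of 21 of 106 3′ UTR summits of these genes (19.8%) and of 15.4% of 10707 of other genes.

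Genes with and without peaks differed in length. The 18 genes with summits in every list had a median transcript length of 4410 nt (2156 to 9655), and the 20 without a summit 2099 nt (801 to 5302). The median last exon was 3086 nt in the former and 914 nt in the latter. Over all coding genes, those with summits in every list had a median transcript length of 4176 nt and those with none 2202 nt, so that a similar contrast held there. The number of DRACH sequences per transcript had a median of 100 in the former and 38.5 in the latter, and per 1000 nt it was 21.04 and 18.62. GGAC went the other way per 1000 nt, with 3.92 in the former and 4.59 in the latter. Length and transcript level were not separated here.

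A wider list of 102 other genes of the same pathways was counted in the same way. Of these, 36 had a summit in every list, 12 in 1 to 3 lists and 54 in none. Among all coding genes, 16.1% had a summit in every list and 25.5% in at least 1. They held 43 regions found in all 4 lists, of which 28 were lower and 15 higher in shMettl14 (49.9% of all regions were lower), with a median change of -0.13. None of the 43 had an unadjusted limma p under 0.05 or an adjusted one. The most enriched lay in Ltbr, the lymphotoxin receptor, with percentiles of 95.0, 98.5, 97.6 and 95.2, and in Otulin, an enzyme that removes linear ubiquitin chains, with 98.4, 95.3, 93.7 and 96.6. Osmr, the oncostatin M receptor that pairs with gp130, stood at 95.9, 95.8, 88.1 and 88.3, and Birc2, a ubiquitin ligase of TNF receptor complexes, at 91.4, 89.9, 95.9 and 85.4. In Osmr both shMettl14 lists were below both shCTR lists (change -0.67 ± 0.49, SE, limma adjusted p 0.999), and in the other 3 the groups overlapped.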

How the data were processed

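The authors aligned m6A-RIP-seq reads to mm10 (GRCm38) with STAR, selected reads that mapped once (SAMtools) and ran MACS2 on every IP sample with its input as control, per the labels and methods. Versions of these tools and caller options are not given in the sources used here. The deposited lists (1 per IP sample, replicates not pooled) hold for each summit the fold enrichment over background, a ratio, and the −log10 p-value and −log10 q-value, and no read totals. The authors also deposited 1 interval file per shRNA for peaks shared by A and B. All 6 files were used.

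Summits (start plus offset) were assigned to the 42 genes by GENCODE M21 exons on either strand. Fragments at each summit were recovered by solving MACS2's fold and Poisson formulas together (100% of summits to within 0.000151 in −log10 p, with the closer taken where more than 1 pileup came close, in 16 to 62 summits per list). The recovery and the rank test were checked on simulated data. For the rank test the simulated shifts were larger than any change reported here. That check therefore does not show whether changes of the reported size would be called. Intervals of the 4 lists sharing at least 1 bp were merged into regions. For the 4929 regions present in every list, the top fold enrichment was ranked list by list, converted to normal scores and compared with limma 3.58.1 (R 4.3.3, lmFit and eBayes, two-sided, Benjamini-Hochberg over all regions), without a replicate block. Fisher's exact test, which the methods name, was run on recovered fragments summed over replicates, as an alternative. It set the sum of a region against the group's total over all shared regions, and its log2 ratios compare these shares. Positions relative to stop codons used the complete transcript of a gene with the longest coding sequence (21597 genes). Motifs were searched on the sense strand. Single values were compared with two-sided exact permutation tests over lists (smallest p 0.333). Python 3.11.15, numpy 2.4.6, pandas 2.3.3, scipy 1.17.1 and pysam 0.24.0 were used. Coordinates are 1-based.

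Every listed gene was accounted for, and regions in all 4 lists were given with their values. Sequences were shown for the 6 most enriched genes except Traf6, and for up to 4 regions whose groups did not overlap. The gene list, the pathway list and the markers were chosen with earlier results of these data known. Alternatives were equal list sizes, a stricter q-value, other ranks, merges, windows and motifs, a replicate block, and leaving out each list.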

Additional observations from a re-analysis of the deposited data

How the results depend on the processing

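The 0 calls of the rank test over the 24 regions stayed at 0 under every alternative run, and the lowest adjusted p of any of these regions under any of them was 0.825 (limma, replicate block). Between 13 and 17 of the 24 regions were lower in shMettl14 over all alternatives (15 in the reported fit). Letters A and B are shared by the groups, but no source says that they mark a shared batch. The deviations of the A lists over all regions correlated at 0.0795. With the letter as a replicate block, 0 of the 4929 regions passed (292 at an unadjusted p under 0.05), 2 of the 24 had an unadjusted limma p under 0.05, and the changes themselves were the same. Ranked by −log10 p, the change was -0.214 in the Csf1 3′ UTR region 317 to 347 nt past the stop codon and -0.0666 in Tnfrsf1a, and by centred log2 fold enrichment it was -0.00452 in that Csf1 region, each opposite to the reported sign. By Fisher's exact test the log2 ratio of fragment shares had the opposite sign in Il6st (0.0339), the same Csf1 region (-0.18), the Icam1 3′ UTR region (-0.16) and Tnfrsf1a (-0.14). The cause was not tested.

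Leaving out 1 list at a time turned the sign in 12 of the 24 regions, and 12 kept it under every alternative (a lone list is assumed to vary like the others). The sign turned without shCTR A in Il6st, Lif, the Csf1 3′ UTR, Icam1, Zfp36, Irf2bp2, Stat2, Traf3 and Tlr2, without shCTR B in Tnfrsf1a, without shMettl14 A in the Csf1 coding region, Jak1, Traf3 and Tlr2, and without shMettl14 B in the Csf1 3′ UTR. The change with 1 list left out ranged from -0.380 to 0.0465 in Il6st, -1.09 to 0.438 in the distal Lif region, -0.578 to 0.0353 in the coding region and -0.302 to 0.309 in the proximal 3′ UTR region of Csf1, -0.418 to 0.966 in the 3′ UTR region of Icam1, -1.24 to 0.701 in Zfp36, -0.390 to 0.755 in the exon 1 region of Irf2bp2, -0.875 to 0.119 in Stat2, -0.507 to 0.208 in Jak1, -0.0618 to 0.604 in Tnfrsf1a, -0.468 to 0.434 in Traf3 and -0.359 to 0.486 in the region of Tlr2 near its stop codon. Among the regions that kept their sign, it ranged from -1.44 to -0.557 in the proximal Lif region, -1.18 to -0.422 in Il1r1, -0.871 to -0.0620 in Traf6, -0.920 to -0.249 in the 3′ UTR region of Tlr4, -1.26 to -0.826 in its early coding region, -0.606 to -0.364, -1.31 to -0.774 and -0.448 to -0.135 in the exon 7, exon 8 and 3′ UTR regions of Tnfaip3, 0.0336 (without shCTR B) to 0.732 at the stop codon and 0.548 to 1.20 in the distal region of Tnfrsf1b, 0.0744 (without shCTR A) to 0.386 in Lifr and 0.0580 to 0.191 in the exon 2 region of Irf2bp2. Without 1 list, the unadjusted limma p was 0.0580 to 0.216 in that Tlr4 coding region and 0.0494 to 0.246 in that Tnfaip3 region.

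The ratio of summit numbers was 0.984 in distinct intervals, and with 1 list left out it ranged from 1.07 (without shMettl14 A) to 1.58 (without shCTR A). The ratio per 1000 summits ranged from 1.08 to 1.19 and the number of genes with summits in all lists from 18 to 20 with 1 list left out. The difference in the share of summits near the stop codon was -4.03 points. It was 0.69 with a window of 400 nt, 4.26 by interval midpoints, and -6.84 to -1.23 with 1 list left out. The difference in the DRACH share was -0.23 points. It was 0.885 with a window of 25 nt, and -1.75 to 1.29 with 1 list left out, the sign turning without shMettl14 A. With 2 lists per group the precision of every comparison of a single region was limited. Several regions also held few fragments, and the effect of this on the precision was not tested.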
